A study of Homo sapiens with 6 samples.

Results

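The MondoA sugar-sensing arm was followed in the established human leukaemia line MV4-11, of acute myeloid origin, with and without a knockdown of the glycolytic enzyme enolase 1 (ENO1). Its 8 members were chosen by name: the sensors MLXIP (MondoA) and MLXIPL (ChREBP), their partner MLX, and the responsive or related genes TXNIP, ARRDC2, ARRDC3, ARRDC4 and KLF10. All 8 were among the 23227 genes of the deposited count table, and all 8 were among the 14635 genes that passed the filter on low counts. The control group held 3 libraries of cells whose genotype is given as WT and which are described as untreated, with the letters NC in their titles. The knockdown group held 3 libraries of the same WT line, titled sh-ENO1, and the column names of the count table carry a single hairpin name, so the comparison rests on 1 hairpin. The labels do not say whether the controls received a control hairpin, how long after the knockdown RNA was taken, or whether the libraries of a group were separate cultures. The p-values therefore set the difference between the groups only against the variation among these libraries, which may be technical.

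MondoA and ChREBP are basic helix-loop-helix leucine zipper proteins that bind DNA only as dimers with MLX. Glucose-6-phosphate and related sugar phosphates, which arise upstream of the enolase step, drive the dimers into the nucleus, where they bind paired E-boxes known as carbohydrate response elements. TXNIP and ARRDC4, both alpha-arrestins that restrain glucose uptake, are the best known targets of MondoA, and TXNIP also binds and inhibits thioredoxin. The comparison addresses how the RNA of this arm differs in cells with little ENO1.

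Levels are CPM on library sizes scaled by TMM. Differences are log2 fold changes of the knockdown against the control with an approximate standard error, and calls are edgeR quasi-likelihood adjusted p below 0.05. Values of single libraries are given in the order of their replicate numbers. Library totals ran from 20044602 to 26373960 counts. ENO1 was at 3240, 3262 and 3285 CPM without and at 103.4, 101.0 and 101.8 CPM with the knockdown, which left 3.13% of the control level. Mitochondrially encoded genes took 6.69 to 6.88% of the counts in the controls and 9.27 to 9.69% in the knockdown libraries. Control replicate 2 and knockdown replicate 3 differed more than the rest from their group mates. The chi-square over genes, divided by its degrees of freedom, was 2.74 to 3.95 for pairs with one of them, 2.06 and 2.24 for the remaining pairs within a group, and at least 64.3 for pairs from different groups. All 9 myeloid leukaemia markers were measured, and 5 were called higher and 3 lower in the knockdown cells. That is 88.9% called, beside 59.9% of all genes tested. The receptor gene FLT3 went from 808.4 to 1018 CPM and ANPEP, which encodes CD13, from 11.0 to 45.5 CPM, while the myeloid factors CEBPA and SPI1 had log2 fold changes of -0.62 and -0.33 and MPO went from 22.4 to 3.66 CPM. Their summed level, to which FLT3 gave the largest part, ran from 1718 to 1737 CPM in the controls. It ran from 1934 to 1970 CPM in the knockdown libraries. T cell markers summed to at most 0.139 CPM in any library, and MS4A1 and EPCAM, which mark B cells and epithelia, were at 0 in all control libraries. The summed level of the B cell list went from 3.45 to 4.67 CPM in the controls to 6.17 to 7.02 CPM in the knockdown libraries. That of the epithelial and fibroblast list went from 28.6 to 30.9 CPM to 62.3 to 66.1 CPM, and that of the erythroid list, represented here by the receptor gene EPOR, went from 14.9 to 16.9 CPM to 6.15 to 7.26 CPM. The part of these shifts in the results below was not tested.

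The promoter windows of the targets show where such an element could lie. RefSeq windows on GRCh38.p14, each reaching from 250 bases before to 50 bases after a transcription start, were found for 7 of the 8 members, and KLF10 had no entry. There were 10 windows in all, since TXNIP, ARRDC2 and ARRDC3 had 2 each. They were searched for the E-box CACGTG and for the carbohydrate response element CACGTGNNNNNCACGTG, which contains 2 E-boxes and reads the same on both strands. The TXNIP window (chr1:145996530-145996829, minus strand) is shown because it held the closest match of all member windows, in capitals, at positions -88 to -72 from the start.
TXNIP: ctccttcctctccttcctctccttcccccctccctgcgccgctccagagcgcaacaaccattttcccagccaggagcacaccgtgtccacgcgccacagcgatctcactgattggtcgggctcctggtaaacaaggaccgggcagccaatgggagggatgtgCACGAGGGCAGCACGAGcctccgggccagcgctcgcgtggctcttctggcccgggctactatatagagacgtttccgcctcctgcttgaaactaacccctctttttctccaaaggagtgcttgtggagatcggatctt
That match differed from the element by T5A and T16A, counted from 1 at its 5′ end. A match with at most 2 mismatches was present in 1.01% of the 35116 windows of all genes in the RefSeq table. The ARRDC4 window (chr15:97960453-97960752, plus strand) is shown beside it because ARRDC4 had the largest log2 fold change of the members, with its only exact E-box in capitals, starting at position -210.
ARRDC4: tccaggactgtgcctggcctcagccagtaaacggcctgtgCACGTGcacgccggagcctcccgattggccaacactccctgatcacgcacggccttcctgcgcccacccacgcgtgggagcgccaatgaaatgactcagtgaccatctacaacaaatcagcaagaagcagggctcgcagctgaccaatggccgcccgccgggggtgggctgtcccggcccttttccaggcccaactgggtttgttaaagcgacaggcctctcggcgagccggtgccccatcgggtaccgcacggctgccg
An exact E-box was present in 7.26% of all windows, and among the members also in the MLX window, at position -50. The closest match to the whole element had 3 mismatches in the windows of ARRDC4, MLX and MLXIPL and in 1 window each of ARRDC2 and ARRDC3, a closeness reached by 9.24% of all windows, and 4 mismatches in that of MLXIP, reached by 47.2%. The other ARRDC3 window also had 4 mismatches, and the second windows of TXNIP and ARRDC2 had 5, a closeness that 94.8% of all windows reached. The best matches of TXNIP, ARRDC4 and ARRDC2 are set side by side to show how they differ, with the bases that equal the element in capitals and the spacer in lower case.
TXNIP element: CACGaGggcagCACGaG
ARRDC4 best match: aACGgcctgtgCACGTG
ARRDC2 best match: CcCGcGtgcgtCACGgG
These letters describe the windows only, and binding was not measured. CCAAT, the motif bound by the factor NF-Y, was counted on both strands after the windows had been read. It occurred 2 times in the TXNIP window shown and 3 times in that of ARRDC4, and 10.8% of all windows held at least 2 and 3.26% at least 3. It occurred 1 time in the windows of MLX and MLXIP and in 1 window each of ARRDC2 and ARRDC3. The remaining member windows held 0.

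All 8 members differed between the groups, 6 higher and 2 lower in the knockdown cells. Over all genes tested, 59.9% were called, with 29.4% higher and 30.5% lower, so a call by itself is common in this comparison. The groups did not overlap for any of the 8 members, and they did not overlap for 64.3% of all genes tested. The median log2 fold change of the members was 0.47, beside 0.0043 over all genes tested. The members were chosen with earlier results of these data known, so this contrast is a description only. The rises were large for TXNIP and ARRDC4, intermediate for ARRDC3 and MLXIPL, at 1.02 and 0.67 on the log2 scale, and small for MLX and MLXIP, while ARRDC2 and KLF10 were slightly lower. In bulk RNA a change in the share of cells that hold a transcript and a change in RNA per cell cannot be told apart.

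**Figure D1:**
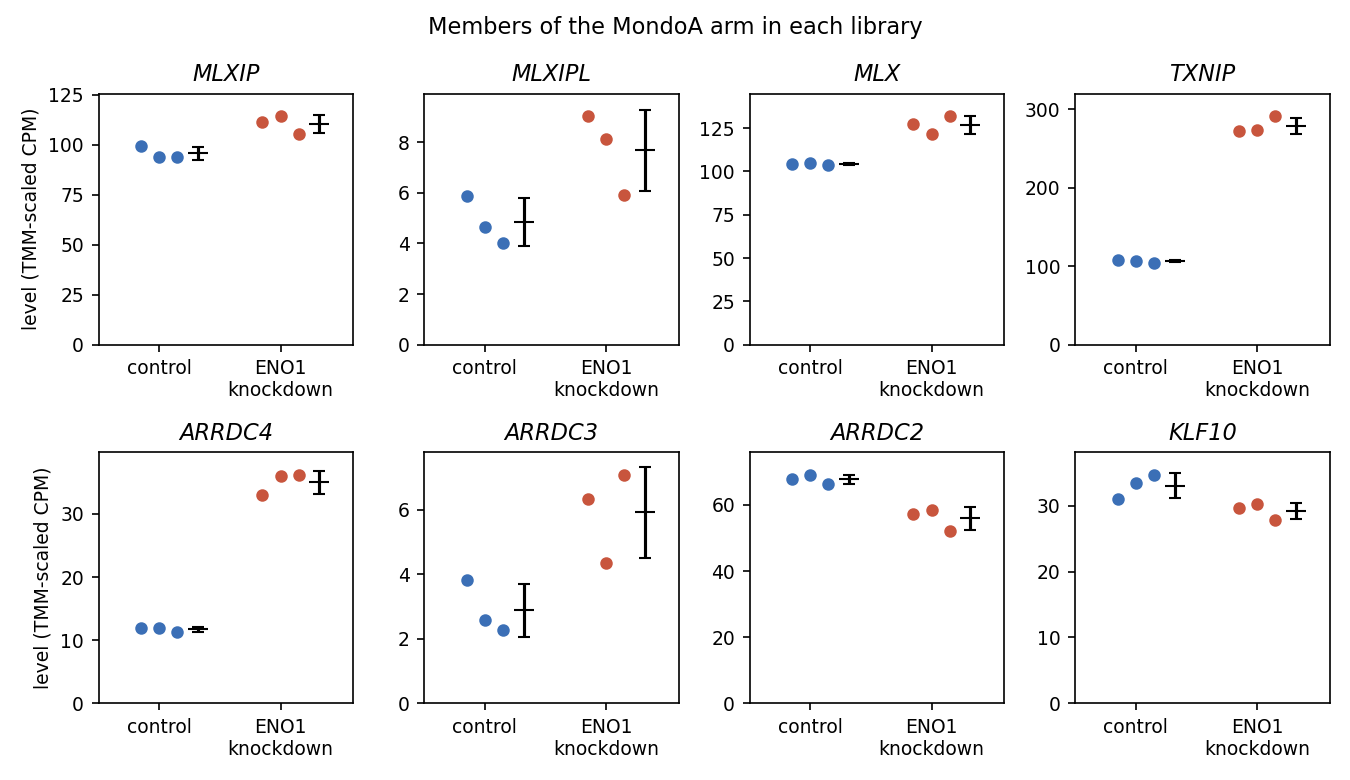
Level of each of the 8 members in TMM-scaled CPM (vertical axis from 0, its range differing between panels) in the 3 control libraries (blue) and the 3 ENO1 knockdown libraries (red), in the order of their replicate numbers, with the mean and SD in black. TXNIP and ARRDC4 are more than 2-fold higher in every knockdown library, and ARRDC2 and KLF10 are slightly lower.

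The sensors and their partner were all somewhat higher. MLX (ENSG00000108788, GRCh38 chromosome 17, 42567068 to 42573239, plus strand), the obligate partner of both sensors, was at 104.5, 104.6 and 103.8 CPM in the controls. It was at 127.3, 121.6 and 131.8 CPM in the knockdown libraries. The groups did not overlap, and the controls lay within about 1 CPM of each other. MLX rose by 0.28 ± 0.038 on the log2 scale (edgeR adjusted p = 3.94e-07), a 1.22-fold difference. Of its 4259 exon bases 770 (18.1%) also lie in exons of PSMC3IP on the opposite strand, and with the strand setting not given, reads from that stretch cannot be assigned to one of them. PSMC3IP itself had 1478 counts over the 6 libraries against 15887 for MLX and was lower in the knockdown cells, with a log2 fold change of -0.38.

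MLXIP (ENSG00000175727, chromosome 12, 122078722 to 122147347, plus strand) encodes MondoA, the sensor found in most tissues. The control libraries had 99.3, 93.9 and 93.8 CPM, and the knockdown libraries had 111.4, 114.1 and 105.3 CPM. The lowest knockdown library lay above the highest control by a small margin. MLXIP rose by 0.21 ± 0.041 on the log2 scale (edgeR adjusted p = 0.000102), a 1.15-fold difference.

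MLXIPL (ENSG00000009950, chromosome 7, 73593194 to 73624543, minus strand) encodes ChREBP, the sensor best known from liver and fat. It was a low transcript here, at 5.86, 4.63 and 4.02 CPM without and at 9.02, 8.12 and 5.90 CPM with the knockdown. Knockdown replicate 3 was barely above control replicate 1, so the separation of the groups was narrow. The log2 fold change was 0.67 ± 0.16 (edgeR adjusted p = 0.000914). These levels rest on 98 to 194 counts per library.

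TXNIP, the arrestin that holds thioredoxin and promotes removal of glucose transporters from the cell surface, had the clearest difference of the 8 by adjusted p. TXNIP (ENSG00000265972, chromosome 1, 145992435 to 145996600, minus strand) was at 108.2, 106.9 and 104.6 CPM in the controls. It was at 272.6, 272.9 and 290.9 CPM in the knockdown libraries. Every knockdown library was more than 2-fold above every control, and the spread within each group was small beside that gap. The mean was 106.6 ± 1.85 CPM (SD of 3 libraries) without and 278.8 ± 10.5 CPM with the knockdown. On the log2 scale TXNIP rose by 1.39 ± 0.035 (edgeR adjusted p = 3.03e-22). The log2 fold change was higher in 536 of the 14635 genes tested.

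ARRDC4 (ENSG00000140450, chromosome 15, 97960698 to 97973838, plus strand), the closest companion of TXNIP among sugar-responsive arrestins, was at 11.9, 11.9 and 11.3 CPM in the controls. It was at 33.0, 36.0 and 36.2 CPM in the knockdown libraries. The groups were far apart, as for TXNIP, although ARRDC4 had a far lower level. ARRDC4 rose by 1.58 ± 0.073 on the log2 scale (edgeR adjusted p = 1.39e-16), a 2.99-fold difference, and 395 genes had a higher log2 fold change.

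ARRDC3 (ENSG00000113369, chromosome 5, 91368724 to 91383359, minus strand), an arrestin that links receptors to ubiquitin ligases, was the lowest member. Its level was 3.82, 2.58 and 2.26 CPM without and 6.32, 4.36 and 7.08 CPM with the knockdown. The libraries of each group were widely scattered, and the lowest knockdown library was close to the highest control. The log2 fold change was 1.02 ± 0.20 (edgeR adjusted p = 0.000157), from 55 to 144 counts per library. In its exons 145 bases overlap ARRDC3-AS1 on the opposite strand, whose level of 1.01 ± 0.396 CPM without and 0.840 ± 0.229 CPM with the knockdown (SD of 3 libraries) gave no call (edgeR adjusted p = 0.557).

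ARRDC2 (ENSG00000105643, chromosome 19, 18001132 to 18014102, plus strand), a further alpha-arrestin, went the other way. Its control libraries were at 67.8, 69.1 and 66.4 CPM and its knockdown libraries at 57.4, 58.6 and 52.1 CPM. The groups did not overlap. ARRDC2 fell by 0.27 on the log2 scale, with a standard error of 0.050 (edgeR adjusted p = 2.85e-05). In its exons 442 bases (9.53%) overlap AC020904.3 on the opposite strand. That gene is not in the count table, so its level is not known here.

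KLF10 (ENSG00000155090, chromosome 8, 102648779 to 102655902, minus strand), a zinc finger repressor that is induced by transforming growth factor beta and by sugar, had the smallest difference. Its control libraries were at 31.0, 33.5 and 34.7 CPM and its knockdown libraries at 29.6, 30.2 and 27.8 CPM. The gap between the groups was smaller than the spread within either. The log2 fold change was -0.18 ± 0.063 (edgeR adjusted p = 0.0164), and this call was lost under 9 of 16 alternatives, with an adjusted p from 0.0058 to 0.105 over all of them. Leaving out control replicate 2, control replicate 3 or knockdown replicate 3 gave 0.0508, 0.0941 and 0.0502, and DESeq2 gave 0.0522. No alternative gave KLF10 a positive value.

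**Figure D2:**
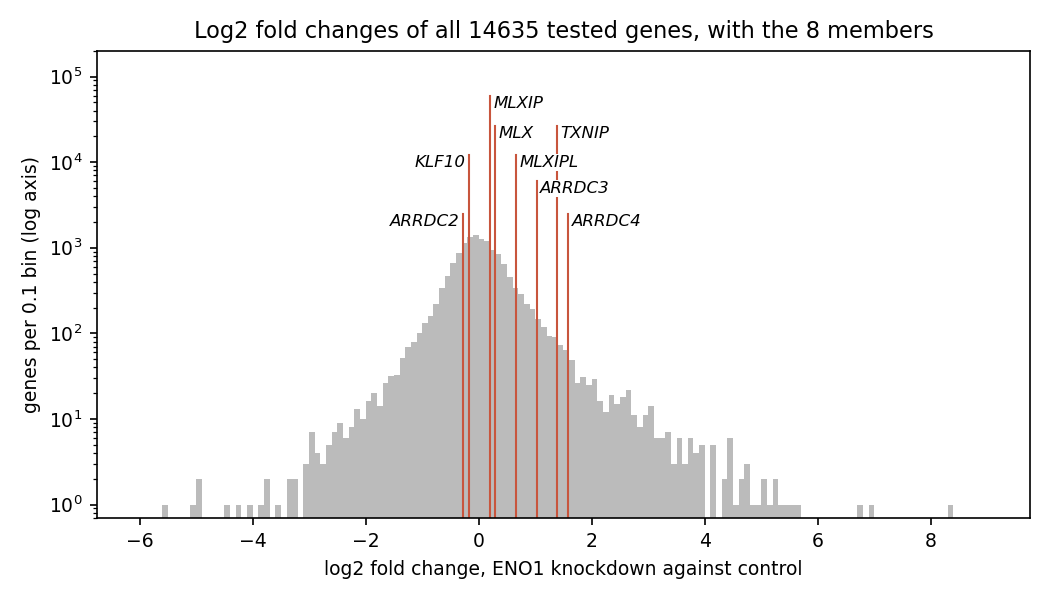
Distribution of the log2 fold changes of all 14635 tested genes (grey, genes per bin of 0.1 on a log axis), with the 8 members as red lines whose heights only place the names. TXNIP at 1.39 and ARRDC4 at 1.58 lie in the upper flank, while ARRDC2, KLF10, MLXIP and MLX lie in the body of the distribution.

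Levels of different genes were compared per kilobase of exon. In the controls TXNIP was highest, at 29.4 ± 0.509 CPM per kilobase (SD of 3 libraries), followed by MLX at 24.5 ± 0.0980. ARRDC2 followed at 14.6 ± 0.300, KLF10 at 8.26 ± 0.472 and MLXIP at 6.88 ± 0.224. ARRDC4 was at 2.87 ± 0.0878, MLXIPL at 1.00 ± 0.195 and ARRDC3 at 0.585 ± 0.167, so the sugar-responsive arrestin with the larger fold change started from a far lower level than TXNIP. No neighbours in that order overlapped in the control libraries. In the knockdown libraries TXNIP was at 76.9 ± 2.90 and MLX at 29.8 ± 1.2 CPM per kilobase. ARRDC4, at 8.61 ± 0.445, came to lie above KLF10, at 7.30 ± 0.316, and overlapped with MLXIP, at 7.93 ± 0.323. MLXIPL and ARRDC3, at 1.6 ± 0.333 and 1.2 ± 0.285, also overlapped. The order depends on the length used. With the longest coding transcript in place of all exons, a choice added after the data were seen, MLX lay above TXNIP in the controls, at 40.3 and 36.4 CPM per kilobase, and MLXIP above KLF10, at 11.4 and 9.04. In the knockdown libraries TXNIP was again highest, at 95.3 CPM per kilobase beside 49.1 for MLX, and ARRDC4, at 8.61, lay below MLXIP, at 13.1, and overlapped with KLF10, at 7.98.

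**Figure D3:**
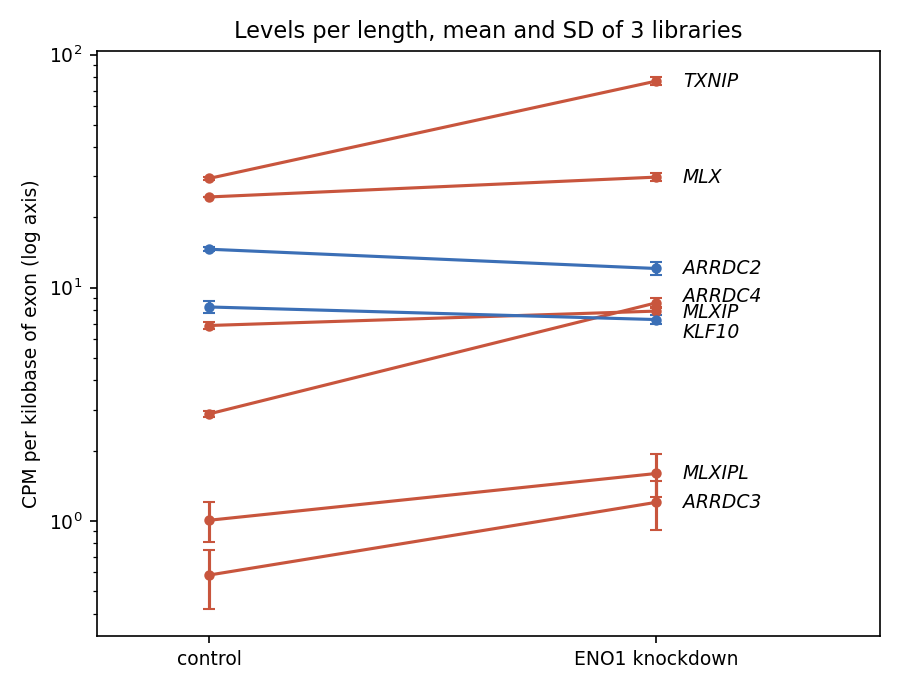
Level of each member in CPM per kilobase of exon (log axis) in control and ENO1 knockdown cells, as mean and SD of 3 libraries, with members that rose in red and those that fell in blue. TXNIP goes from 29.4 to 76.9 and ARRDC4 from 2.87 to 8.61, while the other lines are flatter or lie at low levels.

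A library's ratio of 2 members does not depend on its total count. The ratio of TXNIP to MLX per length was 1.18 to 1.22 in the controls and 2.52 to 2.64 in the knockdown libraries. That of TXNIP to ARRDC4 was 10.1 to 10.4 in the controls and 8.52 to 9.29 in the knockdown libraries, so ARRDC4 gained slightly on TXNIP in each of the 3 knockdown libraries. The ratio of MLX to MLXIP overlapped between the groups, at 3.44 to 3.64 and 3.48 to 4.08, and so did that of MLXIP to MLXIPL, at 5.86 to 8.08 and 4.28 to 6.18. TXNIP made up 44.0 to 44.5% of the summed per-length level of the 6 alpha-arrestins in the controls and 66.9 to 69.8% in the knockdown libraries. That sum was 66.6 ± 1.18 CPM per kilobase in the controls and 113.1 ± 1.66 in the knockdown cells (SD of 3 libraries). Of these 6 measures, 4 separated the groups fully, with a two-sided exact permutation p of 0.1, the smallest that 3 against 3 libraries allow (0.15 after Benjamini-Hochberg adjustment over the 6). The ratio of MLX to MLXIP gave an exact permutation p of 0.4 and that of MLXIP to MLXIPL one of 0.2.

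Within the arrestin family the members moved apart. Of 7 tested genes 4 rose and 3 fell, while 59.9% of all genes tested were called. Besides the rises of TXNIP, ARRDC4 and ARRDC3, the beta-arrestin ARRB1, which desensitises G protein-coupled receptors, went from 241.8 ± 1.78 CPM up to 264.2 ± 6.35 CPM (SD of 3 libraries), a rise of 0.13 in log2 (edgeR adjusted p = 0.000844). ARRB1 was a small change beside those of the sugar-responsive arrestins. ARRDC1, an arrestin of vesicle budding at the plasma membrane, had a log2 fold change of -0.42 and the beta-arrestin ARRB2 one of -0.53. ARRDC5 was at 0.041 CPM in the controls and did not pass the filter.

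MLX also pairs with some of the repressors of the MAX network, which shares this dimerisation family. Of 9 tested genes of that network 6 fell and 1 rose, and the median was -0.51 in log2. The share called was 77.8%, beside 59.9% of all genes tested. MAX, the partner of MYC, had 102.0 ± 0.933 CPM without and 51.4 ± 1.74 CPM with the knockdown (SD of 3 libraries) and fell by 0.99 in log2 (edgeR adjusted p = 5.61e-17), whereas its counterpart MLX rose. MYC, MYCL, MXI1 and MXD3 had log2 fold changes of -0.86, -1.43, -0.54 and -0.51. The repressors known to pair with MLX did not move in one direction. MXD4 rose by 0.35 (edgeR adjusted p = 6.65e-05), MXD1 fell by 0.27 (edgeR adjusted p = 0.000554), and MNT had a log2 fold change of 0.088 and no call (edgeR adjusted p = 0.153). MGA, a large protein with a domain of the same kind, had a log2 fold change of 0.014 (edgeR adjusted p = 0.812).

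Of 10 tested genes in the list of regulators and anchors, 4 rose and 4 fell (80% called, beside 59.9% of all genes tested). The 4 that fell were all 14-3-3 genes, whose products retain the sensors in the cytoplasm: YWHAG, YWHAQ, YWHAH and YWHAE had log2 fold changes of -0.47, -0.40, -0.31 and -0.11. YWHAB, also a 14-3-3 gene, rose by 0.45, and neither YWHAZ nor the exporter gene XPO1 was called (edgeR adjusted p = 0.289 and 0.401). YWHAE, YWHAZ and XPO1 were chosen with their values known. PRKAA1, a catalytic subunit of the AMP-activated kinase, which marks TXNIP for degradation, went from 81.1 ± 2.65 CPM up to 104.5 ± 4.08 CPM (SD of 3 libraries; edgeR adjusted p = 2.45e-08).

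Of the 9 tested genes in the list of thioredoxin partners, 4 rose and 3 fell, and the median was 0.0040. The share called was 77.8%, beside 59.9% of all genes tested. Thioredoxin itself, TXN, which TXNIP binds, went from 117.3 ± 8.70 CPM up to 141.2 ± 5.04 CPM (SD of 3 libraries), a rise of 0.27 in log2 (edgeR adjusted p = 1.94e-05). Its cytosolic reductase TXNRD1 and the peroxiredoxin PRDX1 rose by 0.42 and 0.74. None of the mitochondrial counterparts was called higher. TXN2 and TXNRD2, at 0.0040 and -0.064, had no call (edgeR adjusted p = 0.938 and 0.34), and PRDX3 had a log2 fold change of -0.47. MAP3K5, a stress kinase held by reduced thioredoxin, rose by 0.27, and NLRP3, an inflammasome sensor reported to bind TXNIP, had a log2 fold change of -0.24. DDIT4, which forms a complex with TXNIP, moved opposite to it and fell by 1.33 on the log2 scale.

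Alpha-arrestins act as adaptors for ubiquitin ligases of the NEDD4 family, and most of these ligases were higher. In the list of these ligases and their adaptors, 6 of 8 tested genes rose and 1 fell, and the median was 0.37. The share called was 87.5%, beside 59.9% of all genes tested. NEDD4 went from 9.27 ± 0.502 CPM up to 17.8 ± 1.75 CPM (SD of 3 libraries), a rise of 0.94 in log2 (edgeR adjusted p = 1.84e-09). WWP2, SMURF2 and the adaptor NDFIP2 rose by 0.42, 0.40 and 0.40. NDFIP1, the other adaptor, moved against them, with a log2 fold change of -0.61.

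Genes that supply the sugar phosphates were mostly lower. Of 17 tested genes 10 fell and 6 rose (94.1% called, beside 59.9% of all genes tested), and the median was -0.31. HK2, a hexokinase that makes glucose-6-phosphate, had a log2 fold change of -0.82, the glucose transporter gene SLC2A3 one of -0.79, and GPI and ALDOC, which act on the phosphates further along, ones of -0.48 and -0.76. PFKP, HK3, PFKM and FBP1 went against the list, with rises of 0.86, 0.98, 0.65 and 0.61. PFKM was a low transcript, at 1.86 ± 0.147 CPM without and 2.92 ± 0.886 CPM with the knockdown (SD of 3 libraries; edgeR adjusted p = 0.0136). SLC2A1, chosen with its value known, is the transporter that TXNIP is best known to remove from the cell surface. It had 121.3 ± 2.91 CPM without and 130.7 ± 5.43 CPM with the knockdown (SD of 3 libraries), a rise of 0.11 on the log2 scale (edgeR adjusted p = 0.0171).

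TXNIP and ARRDC4 moved against most other genes reported as targets of MondoA or ChREBP. Of 19 tested genes in that list 13 fell and 3 rose (84.2% called, beside 59.9% of all genes tested). The median was -0.35. The third gene that rose, PFKFB3, rose by 0.21 and was chosen with its value known. The desaturase SCD had a log2 fold change of -2.15, LDHA of -1.02, HK2 of -0.82 and ACLY of -0.72. Many genes of the list have other well known activators, whose part in these differences was not tested. The list was compiled from background knowledge of liver, fat and muscle as well as of cell lines.

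**Figure D4:**
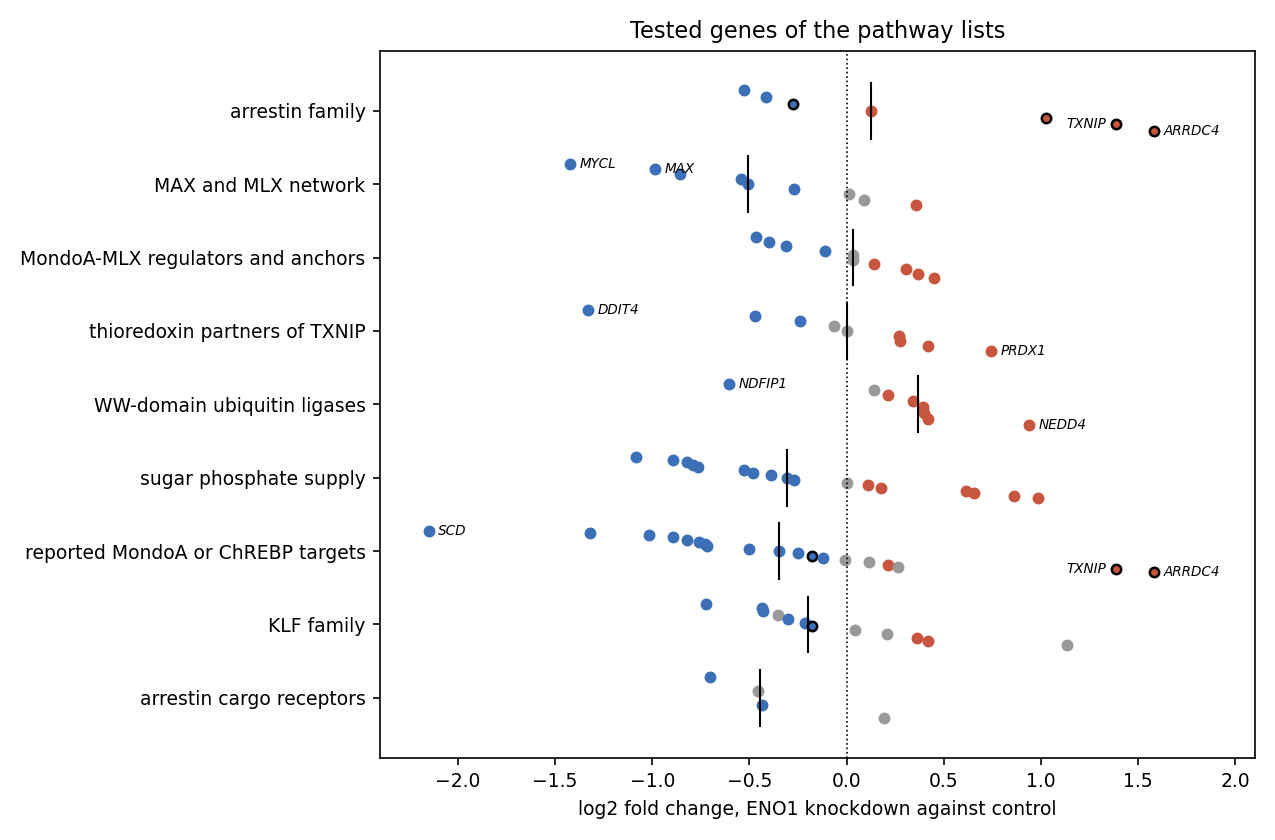
Log2 fold change of every tested gene in 9 pathway lists (higher in knockdown in red, lower in blue, not called in grey), with the median of each list as a black bar, the median of all tested genes as a dotted line, and members of the MondoA arm ringed in black. TXNIP and ARRDC4 lie to the right of every other gene in the lists shown.

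Genes with the most similar profile were found by the root mean square distance between log2 CPM values over the 6 libraries, each gene centred on its own mean, among 8922 genes with a symbol and a mean of at least 10 CPM. The profiles mostly reflect the size of the difference between the 2 groups. The nearest to TXNIP were UGCG, MOB3B and ZNF117, at distances of 0.020, 0.031 and 0.033. UGCG, the glucosylceramide synthase, went from 30.2 ± 0.321 to 79.0 ± 1.63 CPM (SD of 3 libraries). ARRDC4 was 64th in the order, at 0.10. The nearest to ARRDC4 were XAF1, ARHGDIB and GBP4, at distances of 0.029, 0.040 and 0.043, and TXNIP was 28th.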

How the data were processed

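RNA was sequenced from 3 control and 3 ENO1 knockdown samples of MV4-11. Libraries were made from total RNA with a TruSeq RNA kit, per the labels' protocols. HISAT2 2.0.5 and hg38 are named in the submitters' processing notes. No source used here names the read counter, the annotation or the strand setting. The deposited values are whole-number counts per Ensembl gene, per the file headers, and columns were matched to samples by group and replicate number. Symbols were found for 23211 of 23227 genes. Positions and exon lengths came from GENCODE release 29 (GRCh38), promoter windows from RefSeq on GRCh38.p14.

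Counts were tested over all 14635 genes kept by filterByExpr with edgeR 4.0.16 (R 4.3.3; TMM, robust quasi-likelihood, two-sided, Benjamini-Hochberg adjustment, threshold 0.05). Standard errors are the log2 fold change divided by the root of the F statistic. Alternatives used limma 3.58.1, DESeq2 1.42.0, other scalings, filters and thresholds, the replicate number as a block, and libraries left out. The procedure was also run on data simulated with the dispersions fitted here and with far fewer changed genes than were called. No result above rests on that run.

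The members and lists were chosen with earlier results of these data known. Named genes were ENO1, the members, every tested gene of the arrestin, MAX network and thioredoxin lists, and from each other list up to 5 genes with the smallest adjusted p and at least 10 CPM in the higher group, with those moving at least 1.5-fold against their list; genes named beyond this rule are marked in the text. Lists were described by counts and medians, with no set test. At most 2.06% of the 50-base stretches of any member occur in transcripts of other genes. No batch is given in the labels.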

Additional observations from a re-analysis of the deposited data

How the results depend on the processing

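The 6 rises were those of MLX, MLXIP, MLXIPL, TXNIP, ARRDC3 and ARRDC4. They and the fall of ARRDC2 kept direction and call under every alternative that gave them a value, apart from an added 2-fold threshold. ARRDC3 did not pass the filter at 5 CPM in 3 libraries and had no value there. TXNIP ranged from 1.35 to 1.44 on the log2 scale, ARRDC4 from 1.56 to 1.64, ARRDC3 from 0.80 to 1.28 and MLXIPL from 0.53 to 0.82. The number of members lower in the knockdown cells was 2, and 1 (ARRDC2) with upper-quartile scaling, library size scaling, the filter at 5 CPM, DESeq2, a threshold of 0.01 and with both libraries that stand apart set aside, an alternative added after the data were seen; it was 1 to 2 with single libraries left out. KLF10 was the gene lost each time, and the cause was not tested. An added 2-fold threshold left 3 members higher (TXNIP, ARRDC4 and ARRDC3) and 0 lower, and 953 and 521 of all genes; it asks for more than the test alone. With the replicate number as a block, 6 members were higher and 2 lower, with 4165 genes higher and 4325 lower, and no member's call changed. The numbers are not shown to pair the samples, since deviations of same-numbered libraries correlated at 0.058, -0.025 and -0.16. The counting depth limits MLXIPL and ARRDC3, with at most 194 counts in any library.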

Other observations

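KLF10 belongs to a family of zinc finger factors of which 12 were tested. Of these 6 were lower and 2 higher in the knockdown cells, with a median log2 fold change of -0.20. The share called was 66.7%, beside 59.9% of all genes tested. KLF9, which responds to glucocorticoids and thyroid hormone, had 31.8 ± 1.42 CPM without and 19.2 ± 0.382 CPM with the knockdown (SD of 3 libraries) and fell by 0.72 in log2 (edgeR adjusted p = 3.07e-10). KLF16 and KLF3 had log2 fold changes of -0.44 and -0.43. KLF11, the closest relative of KLF10 and chosen with its value known, was at -0.22. KLF13 went the other way and went from 172.0 ± 3.06 CPM up to 230.2 ± 7.25 CPM (SD of 3 libraries; edgeR adjusted p = 1.65e-11). KLF7 also rose, from 8.56 ± 0.859 CPM up to 11.0 ± 1.54 CPM, by 0.36 in log2 (edgeR adjusted p = 0.00759). KLF12, at a mean below 1 CPM in both groups, had a log2 fold change of 1.13 and no call (edgeR adjusted p = 0.0759).

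Among proteins whose surface level arrestins are reported to control, 2 of 4 tested genes were lower and none was called higher. The share called was 50%, beside 59.9% of all genes tested. The iron transporter SLC11A2 fell from 39.4 ± 2.97 to 24.2 ± 2.60 CPM and the insulin receptor INSR from 59.3 ± 1.85 to 43.8 ± 2.43 CPM (SD of 3 libraries).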
